A study of Mus musculus with 8 samples.

Results

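The vesicular glutamate transporter genes Slc17a7, Slc17a6 and Slc17a8 were chosen by gene symbol, and all 3 were found among the 55416 genes of the count table. Messenger RNA was sequenced from the cerebral cortex of 4 mice labelled AGO2_L192P/+ (L192P) and 4 wild-type mice (WT). L192P animals were heterozygous for a leucine-to-proline substitution in Argonaute 2, which was placed into C57BL/6JUke embryos with CRISPR/Cas9 together with a silent change at the cut site. Founders were bred to C57BL/6 wild-type animals, so every L192P library held 1 edited and 1 unedited Ago2 copy in all cells. The labels give neither age nor sex. They do not say whether the libraries came from littermates or whether same-numbered libraries were paired. P-values therefore measure the spread between these libraries.

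Vesicular glutamate transporters pump glutamate from the cytosol of the nerve terminal into synaptic vesicles, using the proton gradient built by the vacuolar ATPase. Slc17a7 encodes VGLUT1, the main form in projection neurons of the cortex and hippocampus. Slc17a6 encodes VGLUT2, which prevails in the thalamus, hypothalamus and brainstem. Slc17a8 encodes VGLUT3, which is found in small groups of serotonergic, cholinergic and cholecystokinin-positive neurons. Argonaute 2 carries a microRNA whose bases 2 to 8, the seed, pair with sites in target mRNAs and lower their output. The comparison asked how the substitution moves transcript levels in the cortex.

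The 8 libraries held between 20396357 and 43575900 counts. Normalized counts, which are counts divided by a size factor for each library, were compared with DESeq2 over 18627 genes. Calls were made where the Benjamini-Hochberg adjusted p was under 0.05, which gave 253 genes, or 1.36% of those tested, with 0.789% higher and 0.569% lower in L192P. Replicate 1 of either genotype stood apart, with 0.93 normalized counts of Xist in L192P and 1.82 in WT against 5185 to 7257 in the other 6 libraries. Chromosome Y genes held 3547 and 3534 counts in that pair and 186 to 573 elsewhere, so results are also given without both replicate 1 libraries. Libraries with the same replicate number deviated together from their group means, so a fit with the replicate number as a block is given for the transporters and for the listed genes described with them where it changed a call. Markers of cortical excitatory neurons were abundant, with a mean of 45960 normalized counts of Camk2a in L192P and 50923 in WT, as the tissue label says. Ago2, the edited gene (ENSMUSG00000036698, chr15:72967693-73056784, minus strand), had 2398, 2273, 2273 and 2222 normalized counts in L192P replicates 1 to 4. WT replicates 1 to 4 had 2380, 2083, 2207 and 2316 counts of Ago2. The genotypes overlapped (log2 fold change 0.03 ± 0.064 SE, n = 4 per genotype, DESeq2 adjusted p = 0.968), and a total mRNA level does not check which allele is present.

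None of the 3 transporter genes was called by DESeq2 with genotype as the only term, nor by edgeR or limma voom, beside 1.36% of all genes tested. At an unadjusted p under 0.05 in DESeq2 there were 2, Slc17a6 and Slc17a7, beside 9.44%. Slc17a6 was 1.72-fold higher and Slc17a7 0.912-fold as high in L192P, and both differences pointed the same way in 4 of 4 same-numbered pairs. Such a uniform direction was found for 23.8% of the genes tested. With the replicate number as a block, Slc17a6 rose (DESeq2 adjusted p = 0.0299) and Slc17a7 fell (adjusted p = 0.0431). That fit called 4.25% of its 12536 genes, 1.82% of them higher and 2.43% lower. Slc17a8 was not called in either fit.

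Slc17a7 (ENSMUSG00000070570) lies on chr7:44813305-44825644, plus strand, in GRCm39, and its canonical transcript has 12 exons. L192P replicates 1 to 4 had 32580, 29697, 28887 and 29885 normalized counts. WT replicates 1 to 4 had 32816, 34033, 32160 and 33732 normalized counts. L192P replicates 2, 3 and 4 were below every WT library, and L192P replicate 1 lay above WT replicate 3. The means were 30262 ± 1604 in L192P and 33185 ± 857 in WT (SD, n = 4 each). The log2 fold change was -0.13 ± 0.054 (SE), a fold of 0.912 with a 95% interval of 0.848 to 0.981, at an unadjusted p of 0.0133 and a DESeq2 adjusted p of 0.292. An exact two-sided permutation test on these values gave p = 0.0571, where 4 libraries against 4 allow no p below 0.0286.

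The same-numbered pairs place the small difference in Slc17a7 mostly outside replicate 1. The ratio of L192P to WT was 0.993 for replicate 1 and 0.873, 0.898 and 0.886 for replicates 2, 3 and 4. Without both replicate 1 libraries, the set apart by Xist, the log2 fold change was -0.18 and Slc17a7 passed the test (DESeq2 adjusted p = 0.0175), in a fit that called 3.46% of its genes, 1.65% higher and 1.81% lower. Scaling by total counts gave -0.11 with an adjusted p of 0.566. Part of the count may not be its own, since 311 exon bases of Slc17a7 are shared with Gm72144 on the other strand and the sources used here do not state whether counting used strand.

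Slc17a6 (ENSMUSG00000030500), on chr7:51271434-51320867, plus strand, varied far more between libraries than Slc17a7. L192P replicates 1 to 4 had 1287, 741, 1711 and 876 normalized counts. WT replicates 1 to 4 had 764, 545, 688 and 692 normalized counts. L192P replicates 1, 3 and 4 were above every WT library, and L192P replicate 2 lay just below WT replicate 1. The means were 1154 ± 438 in L192P and 672 ± 91.9 in WT (SD, n = 4 each), a coefficient of variation of 38.0% and 13.7%. The log2 fold change was 0.78 ± 0.29 (SE), a fold of 1.72 with a 95% interval of 1.16 to 2.55, at an unadjusted p of 0.00723 and a DESeq2 adjusted p of 0.209. The exact two-sided permutation test gave p = 0.0571.

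The pairs of Slc17a6 differed in size but not in direction. L192P stood 1.69-fold above WT in replicate 1, 1.36-fold in replicate 2, 2.49-fold in replicate 3 and 1.27-fold in replicate 4. In the block fit the log2 fold change was 0.71 ± 0.22 (SE). A single library also decided the call without the block. Leaving out L192P replicate 2, the lowest of its group, gave 0.94 with a DESeq2 adjusted p of 0.0303, in a fit that called 0.747% of its genes and 0.436% as higher, whereas leaving out L192P replicate 3, the highest, gave 0.53 with an adjusted p of 0.0918. Without both replicate 1 libraries the log2 fold change of Slc17a6 was 0.79 and the adjusted p 0.338. Its exons share 549 bases with ENSMUSG00000136128, annotated on the other strand.

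Slc17a8 (ENSMUSG00000019935) lies on chr10:89409882-89457326, minus strand, with no exon shared with another gene. L192P replicates 1 to 4 had 154, 168, 101 and 175 normalized counts. WT replicates 1 to 4 had 164, 126, 179 and 167 normalized counts. The groups overlapped throughout, although the lowest value of all belonged to L192P replicate 3. The means were 149.7 ± 33.3 in L192P and 159 ± 23.1 in WT (SD, n = 4 each). The log2 fold change was -0.080 ± 0.18 (SE), with a DESeq2 adjusted p of 0.972 and a 95% interval of the fold from 0.738 to 1.21. The exact two-sided permutation test gave p = 0.629, and 2 of 4 same-numbered pairs were higher in L192P. Without L192P replicate 3 the sign turned and the log2 fold change was 0.070. At 88 to 223 counts per library, the interval leaves room for changes of either sign.

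**Figure D1:**
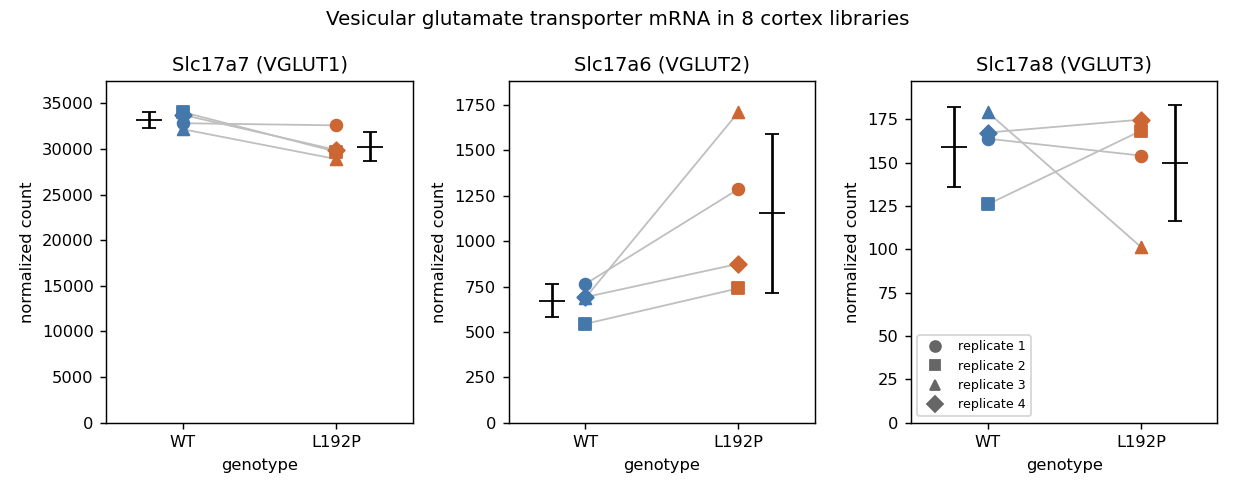
Normalized counts (vertical axes, from 0) of Slc17a7, Slc17a6 and Slc17a8 in WT and L192P libraries, with 1 point per library, a shape for each replicate number and grey lines between same-numbered libraries. Black marks beside the points give the mean and SD of 4 libraries. All 4 lines rise for Slc17a6 and fall for Slc17a7, and they cross for Slc17a8.

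For Slc17a6 and Slc17a7 neither direction depended on the setting, whereas the call did. Neither gene was called by edgeR or limma voom. The call changed in DESeq2 fits with the replicate block or with libraries left out. Over 16 alternatives the log2 fold change of Slc17a6 ran from 0.53 to 0.94 and that of Slc17a7 from -0.18 to -0.11. The adjusted p ran from 0.0299 to 0.587 for Slc17a6 and from 0.0175 to 0.711 for Slc17a7. Slc17a8 ran from -0.19 to 0.070 with no adjusted p below 0.926. The plot of fold change by setting shows 2 filled points each for Slc17a6 and Slc17a7.

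**Figure D2:**
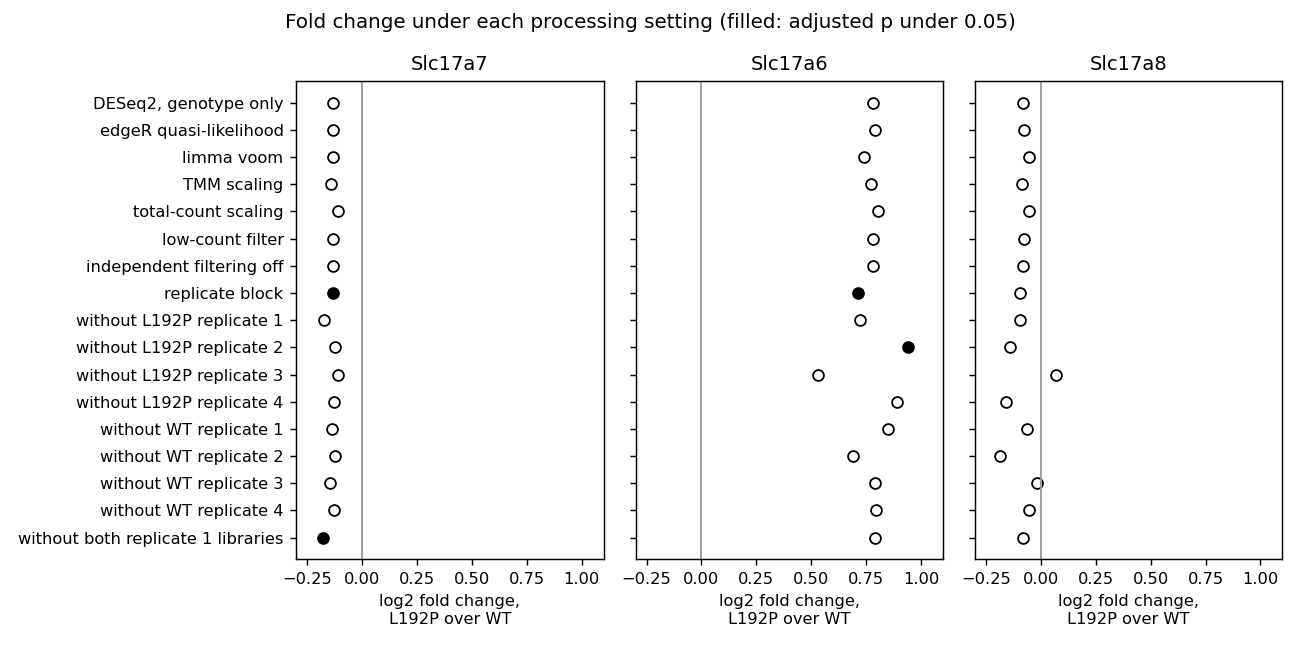
Log2 fold change of L192P over WT (horizontal axes) for each transporter gene under the DESeq2 fit and 16 alternatives (rows), filled where the adjusted p was under 0.05. The points of Slc17a7 sit between -0.18 and -0.11, those of Slc17a6 between 0.53 and 0.94, and those of Slc17a8 on both sides of 0.

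Cortical vesicular glutamate transporter mRNA was almost all Slc17a7. To compare genes with each other, counts were divided by the length of the merged exons and scaled to the sum over all genes of the library, the scale known as TPM. Slc17a7 had a level of 1182 ± 107 TPM in L192P and 1274 ± 29.6 in WT (SD, n = 4 each) and ranked 72 of 54749 genes. Slc17a6 followed with 43.7 ± 16.5 TPM in L192P and 25.0 ± 3.84 in WT, at rank 5252. Slc17a8 had 6.58 ± 1.5 TPM in L192P and 6.87 ± 1.04 in WT, at rank 11454. The order Slc17a7, Slc17a6, Slc17a8 held in each of the 8 libraries, with no overlap between neighbours.

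The make-up of the transporter pool followed the same scale. Slc17a6 held 3.54% ± 1.36 of the summed level of the 3 genes in L192P and 1.92% ± 0.29 in WT (SD, n = 4 each), and Slc17a7 held 95.9% and 97.6%. The share of Slc17a8 was 0.534% in L192P and 0.527% in WT. With the length of the canonical transcript instead, 4457 bases for Slc17a6 and 3042 for Slc17a7, the Slc17a6 share was 2.53% and 1.36%.

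The balance of Slc17a6 to Slc17a7 was also taken within each library, where scaling between libraries cancels. The log2 ratio of counts, with 0.5 added to each, was -4.66, -5.32, -4.08 and -5.09 in L192P replicates 1 to 4. It was -5.42, -5.97, -5.55 and -5.61 in WT replicates 1 to 4. Every L192P library lay above every WT library, with the nearest pair being L192P replicate 2 and WT replicate 1. Among single genes, 5.97% of those tested had genotypes that did not overlap in normalized counts, and none of the 3 transporters was among them. That share was not computed over ratios of genes, so it does not say how often a ratio separates the genotypes. The ratio of Slc17a6 to Slc17a7 was higher in L192P by 0.85, a fold of 1.80, in 4 of 4 pairs, and the exact two-sided permutation test gave p = 0.0286, the smallest that 4 against 4 allow. Adjusted over the 3 ratios of the family, p was 0.0857, so the difference did not pass the correction. Within pairs the exact sign-flip test gave p = 0.125, the smallest that 4 pairs allow. Without both replicate 1 libraries the log2 difference was 0.87, at p = 0.10 by the exact permutation test, the smallest for 3 against 3.

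The other 2 ratios involve Slc17a8. The log2 ratio of Slc17a6 to Slc17a8 was higher in L192P by 0.82, a fold of 1.76 (exact permutation p = 0.0571, adjusted 0.0857). L192P replicates 1 and 3 were farthest from WT, with log2 ratios of 3.06 and 4.07 against 1.94 to 2.22 in WT. The ratio of Slc17a8 to Slc17a7 differed by 0.029 (exact permutation p = 0.886).

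Markers of excitatory cortical neurons had values on the same side as Slc17a7. This list was chosen with earlier results of these libraries known. All 12 of its genes, among them Tbr1 and Nrgn, had a log2 fold change below 0, with a median of -0.14 against 0.0019 over all genes tested, and 0 of 12 were called by DESeq2, edgeR or limma voom, with 3 at an unadjusted p under 0.05 in DESeq2. Their summed normalized count ran from 107123 to 121717 in L192P and from 115640 to 143843 in WT. In the block fit Nrgn, a calmodulin-binding protein of dendritic spines, Tbr1, a transcription factor of deep-layer neurons, and Neurod6, a transcription factor of projection neurons, fell, by 0.22, 0.25 and 0.31 on the log2 scale. The striatum list lay on the same side, with a median of -0.27. DESeq2 called 2 of its 10 genes lower, among them Penk, which encodes enkephalin, and the block fit called 6 of 10 lower. Of 12 hippocampus markers, DESeq2 called 0, and 5 had a log2 fold change above 0 (median -0.051). Over all genes tested, DESeq2 called 0.569% lower, and 9.44% had an unadjusted p under 0.05, while the block fit called 2.43% of its genes lower. The striatum sum was 33521 to 41888 normalized counts in L192P and 44794 to 55482 in WT, with no overlap, and its part in the level of Slc17a7 was not tested. From bulk tissue, fewer cells of a type and less RNA per cell cannot be told apart, for Slc17a7 as for these markers.

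Most thalamus markers lay on the same side as Slc17a6. Of 18 thalamus markers, 16 had a log2 fold change above 0, with a median of 0.66, and Calb2, Amotl1, Zic1 and Gbx2 were called higher by DESeq2, Calb2 and Zic1 also by edgeR and limma voom. Calb2 is not particular to this list, as it is also among the cholecystokinin and VIP interneuron markers. In the block fit Ntng1 was called higher as well (DESeq2 adjusted p = 0.00453), Amotl1 was not (adjusted p = 0.0672), and Gbx2 was set aside as too low in counts. Over all genes tested, DESeq2 called 0.789% higher, and the block fit called 1.82% of its genes higher. The summed thalamus list overlapped between the genotypes, at 32824 to 39921 normalized counts in L192P and 33434 to 36673 in WT. Most of that sum was Cplx1, with a mean of 21227 in L192P and 22604 in WT (log2 fold change -0.091). Cplx1 and Adarb1 were the members with a log2 fold change below 0, so the sum says little about the rest. Tcf7l2, a transcription factor that defines thalamic neurons, had 620, 251, 1070 and 190 normalized counts in L192P replicates 1 to 4 and 157 to 221 in WT (adjusted p = 0.204). L192P replicates 1 and 3 were high in Tcf7l2 as they were in Slc17a6. Of the called markers, Amotl1 and Gbx2 were also highest in these libraries. Calb2 was highest in L192P replicate 3, at 1446, with 1141 and 1138 in L192P replicates 1 and 2. Zic1 did not follow Slc17a6, at 1345, 1495, 1065 and 1143 normalized counts in L192P replicates 1 to 4. Among L192P libraries Zic1 was lowest in replicate 3, where Slc17a6 was highest.

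The summed hypothalamus and hindbrain lists did not overlap between the genotypes. This was not particular to them. Serotonergic markers summed to 352 to 774 normalized counts in L192P and 287 to 301 in WT, and cholinergic markers to 2240 to 2627 and 1843 to 2156. Of the tested genes, 9 of 10 hypothalamus and 4 of 5 hindbrain and midbrain markers had a log2 fold change above 0. The exceptions were Pomc (-0.12) and En2 (-0.11). The hypothalamus list summed to 1018, 363, 1427 and 944 normalized counts in L192P replicates 1 to 4 and to 205 to 324 in WT. In L192P replicate 3, Pmch gave 262 and Hcrt 178 of these counts, against at most 16.8 and 12.1 in any other library. DESeq2 gave neither gene a p. Otp, a transcription factor of neuroendocrine neurons, and the neuropeptide genes Gal, Oxt and Avp were called higher among 10 of its 16 genes that were tested, of which edgeR called Oxt and Avp and limma voom called 0. The block fit gave an adjusted p to 2 genes of the list and called both higher, Avp and Trh, the thyrotropin-releasing hormone gene. The hindbrain and midbrain list summed to 76.2 to 296 counts in L192P and 50.3 to 64.1 in WT, and the transcription factors Irx2, Lhx5 and Pou4f1 were called higher among 5 of 13 genes tested, and edgeR and limma voom, which tested 3, called 0. The block fit gave no adjusted p to any gene of this list. Over all genes tested, DESeq2 called 0.789% higher, and the block fit called 1.82% of its genes higher. Hoxa5, a defining hindbrain gene, was at 0 in all libraries. The part of these regions in the level of Slc17a6 was not tested.

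Across the 8 libraries, Slc17a6 followed these sums. Pearson's r was taken on log2 normalized counts plus 1. It was 0.97 with the hindbrain and midbrain list (Spearman's rho 0.83), 0.91 with the hypothalamus list (rho 0.90) and 0.75 with the thalamus list (rho 0.33). Without L192P replicates 1 and 3, the libraries farthest from the median of Slc17a6, r was 0.86, 0.80 and -0.46. The values for the thalamus list rest mostly on Cplx1, which gave most of its sum. In WT the hindbrain and midbrain sum was 50.3 to 64.1 normalized counts, of which En2 gave 26.4 to 48.0. With the serotonergic list r was 0.87 (rho 0.64), and 0.62 without L192P replicates 1 and 3. Against the cortical excitatory list r was -0.74 (rho -0.83), and -0.82 without that pair of libraries. Against the striatum list r was -0.81 (rho -0.79), and -0.47 without them. These are descriptions over 8 libraries that share their genotype and scaling, and the plot of Slc17a6 against the list sums shows how few libraries spread the points.

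**Figure D3:**
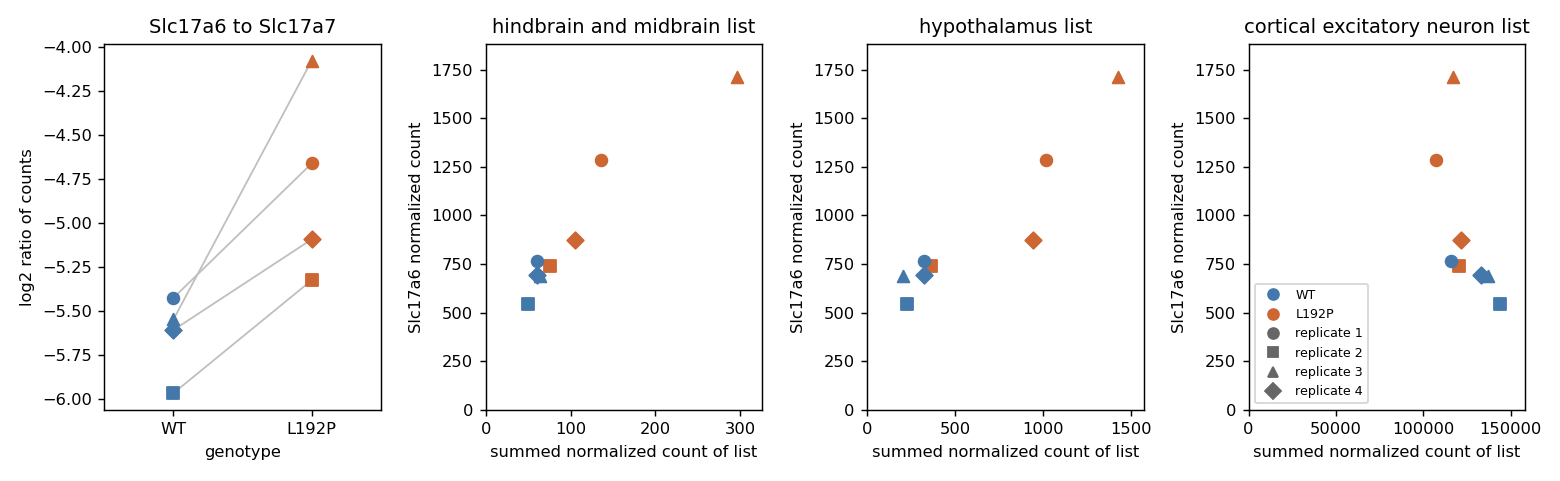
Left panel, log2 ratio of Slc17a6 to Slc17a7 counts (vertical axis) in WT and L192P, with grey lines between same-numbered libraries. The other panels set the normalized count of Slc17a6 (vertical axes, from 0) against the summed normalized count of the hindbrain and midbrain, hypothalamus and cortical excitatory neuron lists (horizontal axes, from 0), with 1 point per library. L192P replicate 3, at 1711 counts of Slc17a6, lies farthest right in the hindbrain and hypothalamus panels, and on the hypothalamus axis L192P replicates 1 and 4 lie close together, at 1018 and 944, with 1287 and 876 counts of Slc17a6.

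The cell types known for Slc17a8 gave no uniform picture. The cholecystokinin and VIP interneuron list had 3 called genes of 8, with Calb2, a calcium-binding protein, and Sncg, a synuclein, higher and Cck, the neuropeptide that names these cells, lower. Calb2 is the same gene that was called on the thalamus list. None of the 6 cholinergic genes was called by DESeq2, edgeR or limma voom, although 5 had an unadjusted p under 0.05 in DESeq2 and all 6 a log2 fold change above 0. Of 4 serotonergic genes tested, 0 were called by these tools, with 1 at an unadjusted p under 0.05. Over all genes tested, DESeq2 called 1.36%, and 9.44% had an unadjusted p under 0.05, while the block fit called 4.25% of its genes. By the block fit 1 gene of each list was called higher, Slc5a7, the choline transporter (DESeq2 adjusted p = 0.0251), and Ddc (adjusted p = 3.98e-05), and Adarb2 joined the interneuron list (adjusted p = 0.0494). Of the defining serotonergic genes, Slc6a4 and Fev were at 0 to 1.2 normalized counts and Tph2, which makes serotonin, at 25.2 to 45.5 in the 8 libraries. L192P replicate 3, the lowest library in Slc17a8, was the highest in the serotonergic list, with 774 normalized counts against 287 to 420 in the other 7 libraries, of which Ddc, an enzyme shared with dopaminergic cells, gave 610. The part of these cells in the level of Slc17a8 was not tested.

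The 3 mRNAs differ in the seed sites that Argonaute 2 could use, and the sites are shown because the edited protein acts through them. The 3′ untranslated region (UTR) of the canonical transcript is 1176 bases long in Slc17a7, 1759 in Slc17a6 and 2296 in Slc17a8, against a median of 1085 over 20819 genes. Exact matches to the seed of 11 brain microRNA families were searched on the transcript strand. Slc17a7 held 4 matches to 3 families, Slc17a6 2 matches to 2 families and Slc17a8 1 match, and the 3 genes had no family in common. The median gene held sites of 1 family. The mature mouse microRNAs of those 6 families, from RefSeq (GRCm38.p6), follow with the seed in capitals.
miR-128-3p: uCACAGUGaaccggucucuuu
miR-138-5p: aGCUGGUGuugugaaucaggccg
miR-125a-5p: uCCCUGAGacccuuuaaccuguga
miR-137-3p: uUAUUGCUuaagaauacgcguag
miR-92a-3p: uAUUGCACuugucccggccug
miR-218-5p: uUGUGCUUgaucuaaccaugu

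The sites themselves, read from GRCm39 on the strand of each transcript, follow with the 7 matching bases in capitals and 8 bases on either side.
Slc17a7, miR-128-3p site, chr7:44824473-44824495, plus strand: gggcctccCACTGTGgggcagtt
Slc17a7, first miR-138-5p site, chr7:44824970-44824992, plus strand: ctgattctCACCAGCgtttctga
Slc17a7, second miR-138-5p site, chr7:44825038-44825060, plus strand: cgtcccctCACCAGCacactttg
Slc17a7, miR-125-5p site, chr7:44825320-44825342, plus strand: gtgtgtccCTCAGGGgctaaatg
Slc17a6, miR-92-3p site, chr7:51319277-51319299, plus strand: cccatcaaGTGCAATctgtggca
Slc17a6, miR-137-3p site, chr7:51320432-51320454, plus strand: gtgtaccaAGCAATAagtgcaaa
Slc17a8, miR-218-5p site, chr10:89410707-89410729, minus strand: gaaaacgaAAGCACAgcagtagt

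Such matches are common. The miR-128-3p match CACTGTG occurred in 20.5% of all 3′ UTRs, the miR-138-5p match CACCAGC in 13.0% and the miR-125-5p match CTCAGGG in 14.5%. The miR-92-3p match GTGCAAT occurred in 6.96%, the miR-137-3p match AGCAATA in 10.7% and the miR-218-5p match AAGCACA in 15.1%. The miR-128-3p match begins at base 13 of the Slc17a7 UTR, next to the stop codon, and the miR-138-5p matches begin at bases 510 and 578. No match to miR-9-5p, let-7-5p, miR-29-3p, miR-26-5p or miR-5121 was found in these UTRs. A match describes the letters only, and no binding was measured in these samples.

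Of the genes that fill, feed and empty glutamate vesicles, none was called by DESeq2, edgeR or limma voom. The vacuolar ATPase and chloride channel list had 0 of 17 genes called and 0 at an unadjusted p under 0.05, with a median log2 fold change of -0.031 against 0.0019 over all genes tested. Its most abundant members, Atp6v1b2 and Atp6v1g2, both pump subunits, had log2 fold changes of 0.037 and -0.031. Of 16 endophilins, synaptic vesicle proteins and other partners, 1 had an unadjusted p under 0.05 (median log2 fold change -0.044), and Snap25 and Vamp2, the SNARE proteins of vesicle fusion, had -0.088 and -0.060. Of 6 glutamine transporters 0 did (median -0.056), with -0.025 for Slc38a1 and -0.064 for Slc38a2. Over all genes tested, 9.44% had an unadjusted p under 0.05.

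Of the other members of the SLC17 family and the loaders of other transmitters, DESeq2, edgeR and limma voom called 0. In DESeq2, 2 of the loaders had an unadjusted p under 0.05, beside 9.44% of all genes tested. Slc17a1, Slc17a2 and Slc17a4, described as phosphate transporters, had no counts in any library, and Slc17a3 reached at most 0.91 normalized counts. Slc17a5, the lysosomal sialic acid carrier sialin, had a mean of 451 normalized counts in L192P and 413 in WT (log2 fold change 0.13). Slc17a9, the vesicular nucleotide transporter, had means of 9.97 and 10.6. Among the 4 tested transporters of other transmitters, Slc32a1, which loads GABA, had a log2 fold change of 0.14 (adjusted p = 0.391) and Slc18b1, which carries polyamines, 0.032.

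Of glutamate uptake and metabolism, 2 genes rose by DESeq2 and in the block fit, and edgeR and limma voom called 0. The block fit also called Glul, glutamine synthetase and the most abundant metabolic gene, lower (log2 fold change -0.14, DESeq2 adjusted p = 0.00948). Slc7a11, the cystine-glutamate exchanger, had 648, 883, 921 and 785 normalized counts in L192P replicates 1 to 4 and 591 to 647 in WT (log2 fold change 0.39, DESeq2 adjusted p = 0.0246). It was 1 of 5 tested plasma membrane transporters, a list whose median was -0.012. Gad2, which makes GABA from glutamate, had 6849 to 7730 normalized counts in L192P and 4722 to 6717 in WT (log2 fold change 0.34, adjusted p = 0.0235), with no overlap. It was 1 of 9 tested metabolic genes, whose median was -0.016. Over all genes tested, DESeq2 called 0.789% higher, and the block fit called 1.82% of its genes higher and 2.43% lower. Slc1a2, the main glial glutamate uptake carrier, had a log2 fold change of -0.12 (adjusted p = 0.939).

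**Figure D4:**
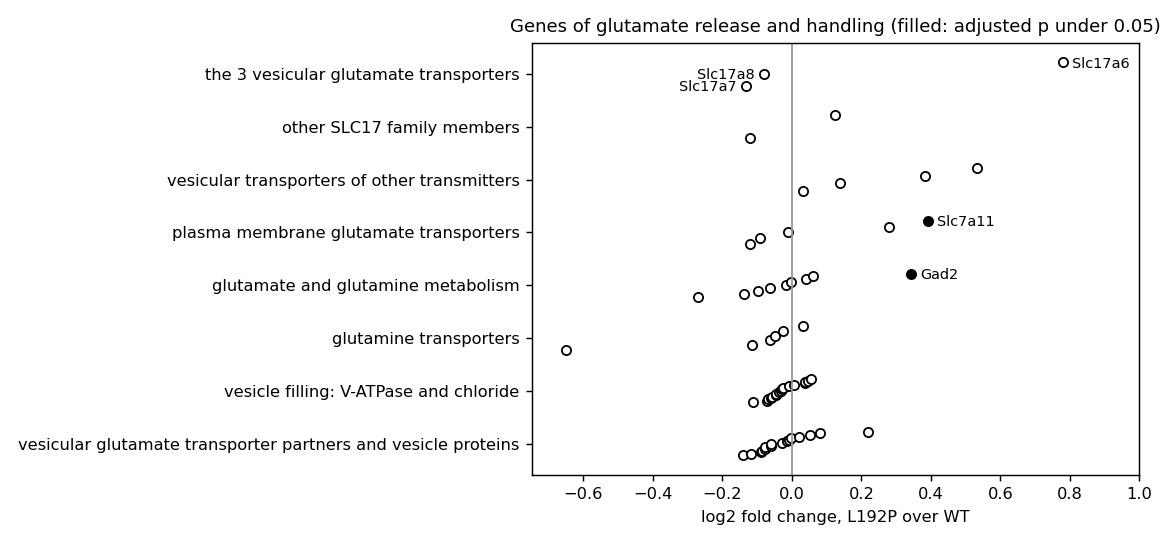
Log2 fold change of L192P over WT (horizontal axis) for the 3 vesicular glutamate transporters and for each tested gene of 7 lists of related function (rows), filled where the DESeq2 adjusted p was under 0.05. Slc7a11 and Gad2 are the filled points, and Slc17a6 at 0.78 lies farthest to the right.

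The genes most like each transporter across the libraries were found by Pearson's r of log2 normalized counts plus 1, over 13422 genes with a mean of at least 50. For Slc17a6 these were Pcdhgc4, a clustered protocadherin (r = 0.993), Prorsd1 (0.947), Ntng1, a netrin G that marks thalamic axons (0.941), Lrig2 (0.940) and Rnf19a (0.937). Without L192P replicates 1 and 3 r was 0.945 for Pcdhgc4, 0.941 for Ntng1 and 0.647 for Rnf19a. After the genotype means were subtracted, Pcdhgc4 was again first for Slc17a6 (r = 0.987), followed by Bid, Fancm, Apol8 and Tnpo1 (0.941 to 0.952). Pcdhgc4 shares its constant exons with the other genes of its cluster, so its count is uncertain.

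Slc17a7 was most like Osbpl3 (r = 0.969), Pde4a, a cyclic AMP phosphodiesterase (0.968), Gm9996 (0.964), Lancl1 (0.962) and Rbm5 (0.961), and after subtraction like Tdg, a DNA glycosylase (0.992), Naa40 (0.980), Luc7l (0.974), Colgalt1 (0.966) and Vps33a (0.966). Without L192P replicates 2 and 3 r with Osbpl3 was 0.936. Slc17a8 was most like Fam151b (r = 0.956), Timm10 (0.930), 2610316D01Rik (0.922), Reep6 (0.919) and Mrpl44 (0.908), and after subtraction like Mettl4 (0.997), Crem (0.973), Sec22c (0.956), Fam151b (0.954) and Zfp317 (0.954). These values describe 8 libraries and were picked as the highest of many genes. Between the transporters r was -0.60 for Slc17a6 and Slc17a7, -0.52 for Slc17a6 and Slc17a8 and 0.24 for Slc17a8 and Slc17a7.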

How the data were processed

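The authors aligned reads of stranded mRNA libraries to GRCm39 and deposited raw counts per gene locus, 1 column per library, which were used here. The submitters' processing notes name STAR 2.7.9a, featureCounts 1.5.1 and DESeq2 1.40.2. The strand setting is not given in the sources used here. A second deposited table of normalized values was not used.

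DESeq2 1.42.0 in R 4.3.3 was fitted to all genes with genotype as the only term. The study's methods name the tool and the 0.05 threshold and state no model terms. Alternatives were edgeR 4.0.16, limma 3.58.1 voom, TMM and total-count scaling, a filter of 10 counts in 4 libraries, independent filtering off, the replicate number as a block, and leaving out libraries. Ratios were tested by exact permutation over 70 arrangements. The programs were tested on simulated data.

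The labels number the replicates and do not state a pairing, so the pairing is inferred from these same counts. Deviations from group means of same-numbered libraries correlated at 0.63, 0.38, 0.23 and 0.33 over 13422 genes. Those of other numbers correlated between -0.38 and 0.14. The highest value, 0.63, belongs to the replicate 1 libraries, the pair set apart by Xist. No 2 libraries agreed within counting noise (chi-square per degree of freedom 5.52 to 22.6). Lengths, exons and UTRs came from GENCODE M39, which held 98.8% of the gene identifiers. Pc, of the metabolism list, was not matched by symbol, and miR-124-3p was not searched. The transporters, lists and tests were chosen with earlier results of these data known. Genes were named as list members past the threshold, otherwise the 2 most abundant of a pathway list, defining markers, and the 5 most alike per transporter. Camk2a, Slc17a1 to Slc17a4, Slc1a2, and the list genes called only in the block fit were named after their values were seen.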

Additional observations from a re-analysis of the deposited data

Results flagged for a closer look

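No group of the 3 transporter genes held a library that stood apart. Among 60 groups of 4 libraries screened, covering the transporters and the summed normalized counts of each list, 5 held a library whose gap to the nearest other exceeded Dixon's 95% critical share of the group's range, and chance gives about 1 in 20, or 3. L192P replicate 3, the library highest in Slc17a6 and lowest in Slc17a7 and Slc17a8, accounted for 3 of them. It had 33521 normalized counts on the striatum list against 40996 to 41888 in the other L192P libraries, 9581 on the hippocampus list against 7207 to 7400, and 774 on the serotonergic list against 352 to 420. L192P replicate 1 had 45374 counts on the astrocyte list against 67052 to 70963. WT replicate 1 had 157855 counts on the vacuolar ATPase and chloride list against 150620 to 151159.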

How the results depend on the processing

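The count of called genes moved from 253 to 53 with edgeR, 45 with limma voom, 533 with the replicate block, 500 without both replicate 1 libraries, and 112 (without WT replicate 4) to 496 (without WT replicate 1) when 1 library was left out. With the replicate number as a block, the log2 fold change was 0.71 for Slc17a6 and -0.13 for Slc17a7, both past the threshold, and the ratio of Slc17a6 to Slc17a7 kept its difference of 0.85 at a sign-flip p of 0.125, the smallest that design allows. The block changed the call of no other transporter gene or ratio. Without both replicate 1 libraries Slc17a7 had -0.18 and passed, and the ratio of Slc17a6 to Slc17a7 had 0.87 and could not pass. Leaving out 1 library gave 0.53 to 0.94 for Slc17a6, which passed without L192P replicate 2, -0.17 to -0.11 for Slc17a7 and -0.19 to 0.070 for Slc17a8, which turned without L192P replicate 3. The same gave 0.61 to 1.03 for Slc17a6 to Slc17a7, where the exact permutation p was 0.0571 without any 1 of the WT libraries, 0.43 to 1.07 for Slc17a6 to Slc17a8, which reached p = 0.0286 without L192P replicate 2, and -0.092 to 0.18 for Slc17a8 to Slc17a7, which was -0.047 without L192P replicate 2, -0.062 without L192P replicate 4 and -0.092 without WT replicate 2. The cause was not tested. Slc17a8 rests on 88 to 223 counts per library, which limits its precision.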
